A study of Mus musculus with 33 samples.

Results

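Of 7726 autosomal windows that the study listed as differentially methylated between 3 kinds of mouse cell, 995 had a higher mean methylation score in calvarial-derived osteoblasts than in tail-tip fibroblasts. These 995 windows were chosen by that rule alone: chromosomes 1 to 19, calvarial-OB score above fibroblast score. They make up 12.9% of the listed autosomal windows. In the remaining 6731 windows the calvarial-OB score was lower (6723) or equal (8), and the whole table holds 9743 windows of 100 bp once the sex chromosomes and unplaced sequences are counted. The difference between calvarial-OB and fibroblast scores is therefore what selected the windows, and it is given here as a description without a test.

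Tail-tip fibroblasts came from Col2.3GFP mice, where a type I collagen promoter fragment marks osteoblast-lineage cells with green fluorescent protein. Induced osteoblasts (iOB) were such fibroblasts given transcription factor genes by lentivirus, with virus washed out after 24 hours, cells split on day 3 and osteogenic medium from day 5. The calvarial-derived osteoblasts (calvarial-OB) are labelled as progenitor cells of the skull vault under osteoblast differentiation; the ages of the mice, the genotype of the calvarial donors and the days of harvest are not given in the sources used here, and no group received virus or medium alone. Sheared DNA of 100 to 350 bp was enriched with methyl-CpG-binding proteins, using 100 ng per library, with 3 enriched and 3 input libraries labelled for each of the 3 cell kinds. RNA was sequenced from other libraries of the same cell kinds, and the titles mark calvarial-OB RNA as a second dataset, so RNA comparisons with it differ in dataset as well as in cell kind, which cannot be told apart.

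DNA methylation in mammals is placed mainly on cytosines followed by guanine. Dnmt3a and Dnmt3b set new methyl groups, Dnmt1 with its partner Uhrf1 copies them at replication, and the Tet enzymes oxidise them as a step towards removal. Methyl-CpG-binding proteins hold methylated fragments back, so coverage by enriched fragments reports methylated DNA over a window rather than a share of methylated cytosines. How the methylation score was derived from that coverage is not given in the sources used here.

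The deposited values are 1 mean relative methylation score per group and window, without the spread between libraries, and the scale, the depth and the test used to list the windows are not given in the sources used here. All 9743 fibroblast means were whole multiples of 1/300, while all iOB and calvarial-OB means were whole multiples of 1/200, each to within 0.001 of a step. Means of 3 values written with 2 decimals fall on the first of these grids and means of 2 such values on the second, and 36.7% of the fibroblast means also fell on the second. Which libraries entered each mean was not recorded in the table. On the autosomes the smallest nonzero iOB score was 0.195, against 0.0433 in fibroblasts and 0.045 in calvarial-OB.

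The listing separated iOB from fibroblasts far more than calvarial-OB from fibroblasts. The iOB and fibroblast scores lay within 0.1 of each other in 20 autosomal windows (0.259%), whereas the calvarial-OB and fibroblast scores did so in 1314 (17.0%). A low iOB score in the 995 windows is for that reason not particular to them.

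In the 995 windows the fibroblast score ranged from 0 to 0.627 with a median of 0.44, and the calvarial-OB score from 0.08 to 0.77 with a median of 0.535. In the other 6731 windows the medians stood the other way round, at 0.637 in fibroblasts and 0.27 in calvarial-OB. The windows higher in calvarial-OB combined a fibroblast score below that of the other windows with a calvarial-OB score above theirs. The calvarial-OB score exceeded 0.5 in 603 of them (60.6%) and in 12 of the others (0.178%). The calvarial-OB score was 0 in 1994 of the others (29.6%), a score that the rule does not allow in the 995. The fibroblast score reached the range 0.6 to 0.75 in 11 of the 995 (1.11%) and in 3490 of the others (51.8%). The rule compares these same scores, so the contrasts in this paragraph are tied to it and are no separate result.

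**Figure D1:**
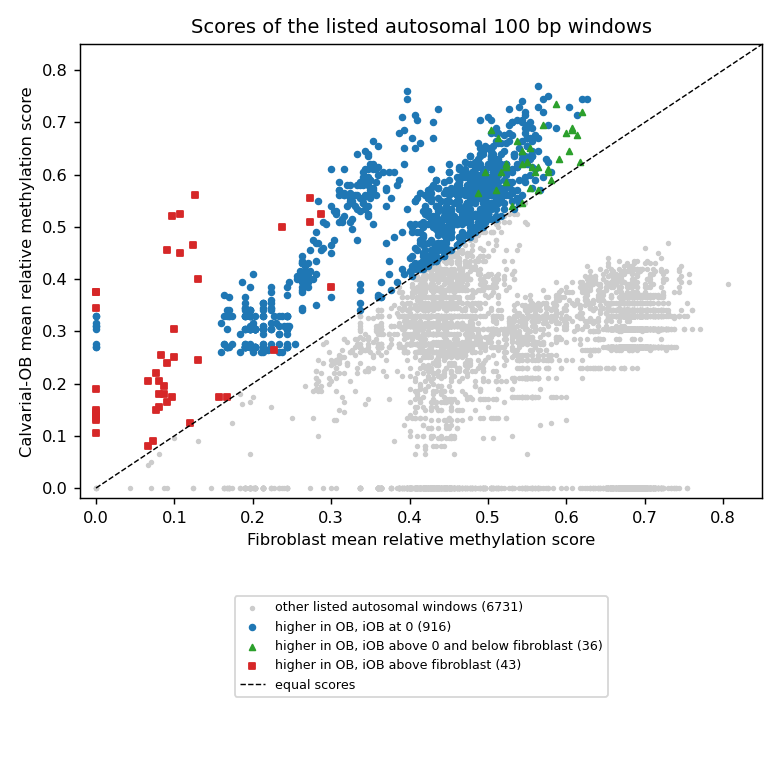
Fibroblast score (horizontal axis) against calvarial-OB score (vertical axis) for each listed autosomal window, both as relative methylation scores averaged per group by the authors. Coloured points above the dashed line of equal scores are the 995 windows higher in calvarial-OB, split by iOB score (916 at 0, 36 above 0 and below fibroblast, 43 above fibroblast), and grey points are the other 6731.

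Most of the differences were small. The calvarial-OB score was higher by a median of 0.0967 (quartiles 0.0533 and 0.143), and by 0.433 at most. The difference was under 0.05 in 228 windows, at least 0.1 in 476, at least 0.2 in 125 and at least 0.3 in 23. As a ratio, the calvarial-OB score exceeded the fibroblast score by at least 25% in 463 windows, by at least 50% in 263 and by at least 100% in 46, counting 19 windows at a fibroblast score of 0.

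The 3 windows nearest to the threshold on its upper side exceeded the fibroblast score by 0.00167. They were chr1:6020401-6020500 (0.363 in fibroblasts, 0.365 in calvarial-OB), chr3:13971601-13971700 (0.453 and 0.455) and chr4:64116601-64116700 (0.543 and 0.545), in the mm9 coordinates of the table. On the other side stood the 8 windows with equal scores. Of these, chr3:59204201-59204300 was at 0.44 in both groups and chr6:47617801-47617900 at 0.49 in both, while chr6:5016301-5016400 was at 0 in all 3 groups although it is listed.

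**Figure D2:**
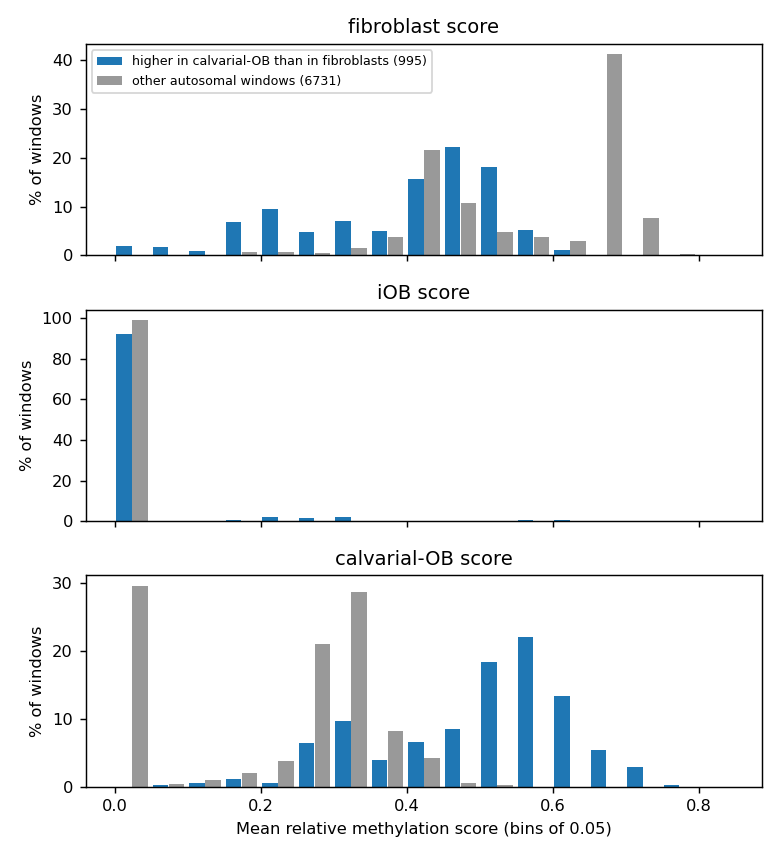
Percentage of windows (vertical axes) in score bins of 0.05 (horizontal axis) for the fibroblast, iOB and calvarial-OB score, with the 995 windows higher in calvarial-OB in blue and the other 6731 in grey. The blue bars of calvarial-OB peak near 0.55 and the grey ones lie at 0 and near 0.3, while the iOB score is 0 in 92.1% of the former and 99.3% of the latter.

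By their order of scores the 995 windows fell into 5 classes. In 907 (91.2%) the iOB score was 0 and the fibroblast score above 0. In 9 windows both the iOB and the fibroblast score were 0, in 36 the iOB score was above 0 and below the fibroblast score, in 6 it lay between fibroblast and calvarial-OB, and in 37 it was above both. An iOB score of 0 occurred in 92.1% of the 995 windows and in 99.3% of the other autosomal windows. An iOB score above the fibroblast score occurred in 43 of the 995 (4.32%) and in 30 of the others (0.446%). The rule favours low fibroblast scores (median 0.44 against 0.637), which an iOB score exceeds more easily. The difference in shares is tied to that. Of the 43 windows, 37 had iOB above both, which places it nearer to calvarial-OB by the rule alone. In the other 6 iOB was nearer to calvarial-OB as well.

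The 907 windows with iOB at 0 were split into 3 bands of the fibroblast score, with limits set after their values were seen. At fibroblast scores of 0.4 to 0.65 there were 584 windows, with a median calvarial-OB score of 0.56, a median difference of 0.0767 and a median ratio of 1.16. At fibroblast scores of 0.25 to 0.4 there were 164, with calvarial-OB at a median of 0.535, a median difference of 0.203 and a median ratio of 1.62. At fibroblast scores of 0.15 to 0.25 there were 159, with calvarial-OB between 0.26 and 0.41, a median of 0.305 and a median ratio of 1.5. Listed windows with low fibroblast scores were more often higher in calvarial-OB: 163 of 254 (64.2%) at 0.15 to 0.25, 168 of 547 (30.7%) at 0.25 to 0.4 and 620 of 3559 (17.4%) at 0.4 to 0.65. Over all 995 windows, the fibroblast score divided by the calvarial-OB score had a small peak at 0.6 to 0.65 (91 windows, 9.15%) apart from a broad one at 0.75 to 1. The bands and ratios rest on means that may average different numbers of libraries, and the part of that in them was not tested. The order of the shares by fibroblast score is tied to the rule, since a low fibroblast score is easier to exceed.

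Among windows with iOB at 0 and a fibroblast signal, the pair with the largest differences lay in short runs. At chr3:132075401-132075500 the score was 0.397 in fibroblasts, 0 in iOB and 0.76 in calvarial-OB, and the pair of windows just before it stood at 0.343 and 0.317 in fibroblasts and at 0.645 and 0.61 in calvarial-OB. At chr5:28773701-28773800 the scores were 0.397, 0 and 0.745, inside a run of 5 windows whose calvarial-OB scores ranged from 0.555 to 0.745. Other windows with a calvarial-OB score of 0.745 or more and iOB at 0 began higher in fibroblasts. At chr8:50659401-50659500 the scores were 0.563, 0 and 0.77, at chr7:62395901-62396000 0.577, 0 and 0.75, and at chr1:160952201-160952300, one of several at that level, 0.62, 0 and 0.745. In these 5 windows calvarial-OB stood highest and iOB was listed at 0, but in the last 3 the fibroblast score was already 0.563 to 0.62.

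A calvarial-OB score without any fibroblast or iOB score was seen in 9 windows, none of which adjoins another of the 9. These were chr3:18700001-18700100 (calvarial-OB 0.31), chr3:47029101-47029200 (0.27), chr4:59319201-59319300 (0.31), chr8:29068801-29068900 (0.33), chr8:36550401-36550500 (0.27), chr9:19551201-19551300 (0.315), chr10:16860401-16860500 (0.33), chr10:97801501-97801600 (0.305) and chr18:89578101-89578200 (0.275). The windows on chromosomes 9 and 18 each adjoin 1 other window that was higher in calvarial-OB. All 9 scores lay between 0.27 and 0.33, below the median of 0.535 for all 995 windows. With a fibroblast score of 0 no ratio can be given, and the depth that would set a limit on such a 0 is unknown.

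In 10 further windows the fibroblast score was 0 and both osteoblast cultures had a score. Of these, 5 adjoin each other at chr5:42153001-42153500, where iOB ranged from 0.31 to 0.4 and calvarial-OB from 0.105 to 0.19, so that iOB was above calvarial-OB in every one. Another 4 adjoin at chr6:30908501-30908900. There iOB stood at 0.32, 0.305, 0.28 and 0.29 from the first window to the last, and calvarial-OB at 0.145, 0.375, 0.345 and 0.375, so that calvarial-OB was lower than iOB in the first window and higher in the next 3. The last, chr13:72762701-72762800, had 0.61 in iOB and 0.135 in calvarial-OB.

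The largest gains of all were in windows where iOB lay between the other cell kinds. At chr8:94884601-94884700 the score was 0.127 in fibroblasts, 0.385 in iOB and 0.56 in calvarial-OB. At chr7:144507201-144507300 it was 0.0967, 0.34 and 0.52, and the window just before it had 0.107, 0.345 and 0.525. The window just after, chr7:144507301-144507400, had 0.2 in fibroblasts, 0 in iOB and 0.41 in calvarial-OB. So calvarial-OB was above fibroblasts along the whole run of 3 windows, while the iOB score went from above the fibroblast score to 0 within 100 bp.

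In the 37 windows with iOB above both other groups, the median scores were 0.09 in fibroblasts, 0.33 in iOB and 0.195 in calvarial-OB. At chr10:71287601-71287700 they were 0.09, 0.57 and 0.455, at chr1:57645301-57645400 0.107, 0.61 and 0.45, and at chr5:23337301-23337400 0.123, 0.645 and 0.465. In these 3 windows calvarial-OB was far from fibroblasts and near iOB. It was near fibroblasts instead at chr14:93448801-93448900 (0.0967, 0.575 and 0.175), chr12:120496901-120497000 (0.227, 0.615 and 0.265) and chr4:146206601-146206700 (0.157, 0.42 and 0.175). Of all 43 windows with iOB above fibroblasts, 32 directly adjoin another listed window and 6 adjoin one with an iOB score of 0.

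Adjoining windows can be covered by the same fragments and are not independent. The 995 windows made up 675 regions of directly adjoining windows: 502 of 1 window, 92 of 2 and 81 of 3 or more, the last holding 309 windows. The share of listed windows that were higher in calvarial-OB grew with the length of the run of listed windows they belonged to. It was 7.25% of the 3267 listed windows that stood alone, 9.29% in runs of 2, 17.6% in runs of 3 to 4 and 32.8% of the 888 windows in runs of 5 or more. Scores differed as well: in the 502 single-window regions the medians were 0.417 in fibroblasts and 0.49 in calvarial-OB, and in regions of 3 or more windows 0.48 and 0.585.

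The longest region, chr13:85984201-85985100, held 9 windows. Its fibroblast scores ranged from 0.343 to 0.547 and its calvarial-OB scores from 0.565 to 0.715, so the ranges did not overlap, and iOB was at 0 throughout. The pair of listed windows just before it went the other way, with fibroblast scores of 0.46 and 0.533 and calvarial-OB scores of 0.275 and 0.34, and so did the window just after it (0.447 and 0.365). At chr14:14472801-14473400 all 6 listed windows were higher in calvarial-OB (0.57 to 0.67) than in fibroblasts (0.43 to 0.52), with no other listed window within 1000 bp. The 6 windows at chr8:60642901-60643500 had differences of 0.0467 to 0.155, and the next window stood at 0.453 in fibroblasts and 0.255 in calvarial-OB. At chr3:9450901-9452200, a run of 13 listed windows, 10 were higher in calvarial-OB: the first 6 by 0.035 to 0.0983, and 4 later ones by 0.203 to 0.27, where the fibroblast score was 0.337 to 0.36. At chr5:43462101-43462700, 6 windows differed by 0.0133 to 0.102, and the iOB score was 0.22 and 0.195 in the first pair of them and 0 in the other 4.

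**Figure D3:**
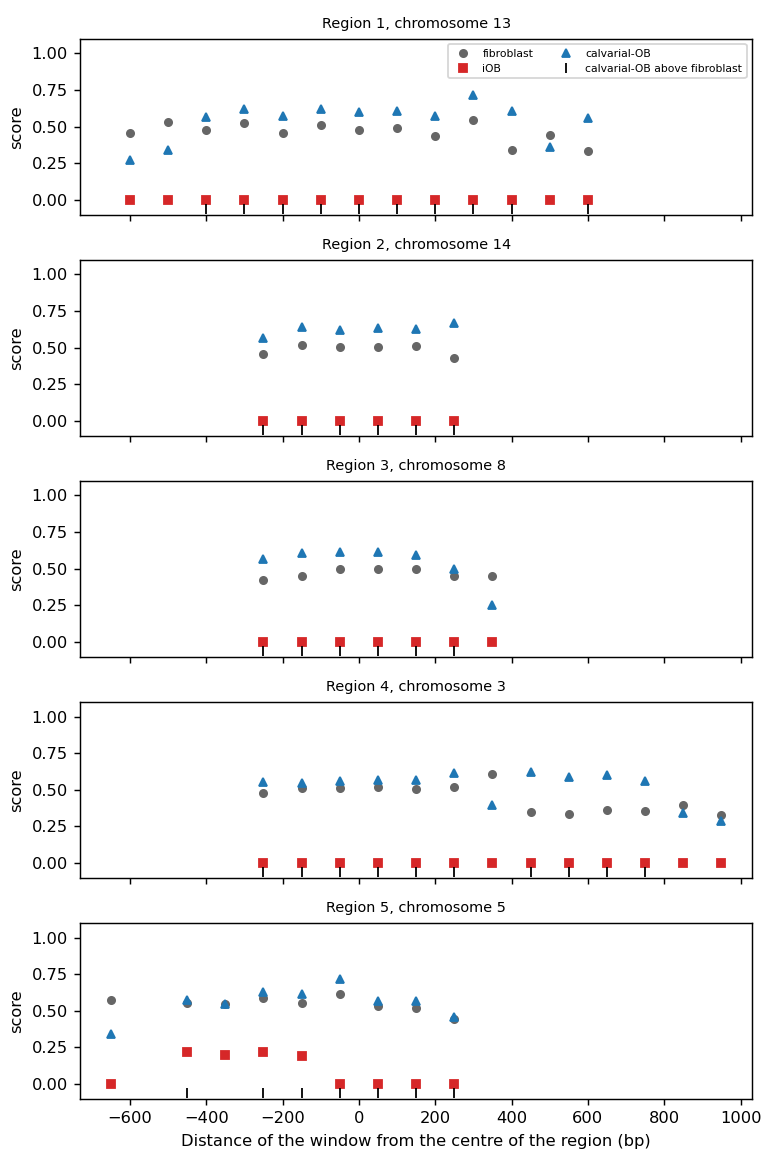
Relative methylation scores (vertical axes) of listed windows around the 5 regions with the most adjoining windows higher in calvarial-OB, by distance of the window from the centre of the region in bp (horizontal axis). Ticks under the points mark windows with calvarial-OB above fibroblasts, which are flanked by listed windows of the opposite order in regions 1, 3, 4 and 5.

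Opposite orders next to each other were frequent. Of the 675 regions, 360 lay in a run that also held listed windows not higher in calvarial-OB, and 315 runs held only windows higher in calvarial-OB. The 394 other windows that directly adjoin one of the 995 had a median calvarial-OB minus fibroblast difference of -0.21, against -0.37 in the other windows without such a neighbour.

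Every autosome held some of the windows. The share of listed windows that were higher in calvarial-OB ran from 9.42% on chromosome 11 (21 of 223) to 18.4% on chromosome 5 (95 of 517), and chromosome 14 followed with 17.3% (68 of 393). The other 16 autosomes lay between 10.2% and 13.6%. Of 1799 bins of 1 Mb with a listed window, 497 held at least 1 of the 995, and 67 held 4 or more. The fullest were chr3:9000001-10000000 with 11 of 22 listed windows in 3 regions, chr13:85000001-86000000 with 11 of 17 in 3 regions, chr14:36000001-37000000 with 10 of 19 in 5 regions and chr18:45000001-46000000 with 9 of 15 in 5 regions. On the X chromosome, outside the rule, 789 of 1852 listed windows (42.6%) were higher in calvarial-OB, and iOB was above fibroblasts in 629 of those (79.7%), against 4.32% of the autosomal ones. The sex of the donor mice was not used here, and its part in the X chromosome scores was not tested.

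**Figure D4:**
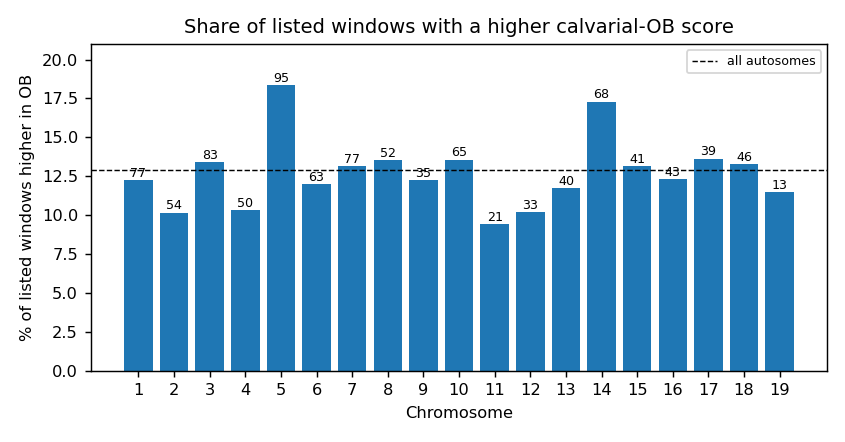
Percentage of listed windows with a higher calvarial-OB than fibroblast score (vertical axis) on each autosome (horizontal axis), with the number of such windows above each bar and the autosomal share of 12.9% as a dashed line. Chromosomes 5 and 14 stand above the others at 18.4% and 17.3%.

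No gene annotation or sequence of the mm9 build was used here, so the windows are given by position only. The reference tables at hand are of GRCm38, and 4 listed windows on chromosome 1 end beyond the last gene of that build.

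RNA is a measure that the rule did not use, and it was tested for the genes that write, remove and read DNA methylation. Calls are edgeR quasi-likelihood tests with Benjamini-Hochberg adjustment over 13438 genes at an adjusted p below 0.05. Levels are library-scaled counts (CPM), as mean ± SD over 3 libraries. Nothing states that the 3 libraries of a group are separate cultures or animals, so p-values measure the spread between these libraries. The libraries held 5646299 to 15023771 counts, and replicates correlated at 0.969 to 0.994 across genes. All 10 osteoblast markers were higher in calvarial-OB than in fibroblasts, and 5 of 8 fibroblast markers were lower and 2 higher. Over all genes tested, 28.4% were called higher and 27.4% lower in that comparison. All 12 macrophage markers were higher as well, with a summed level of 32.3 to 71.3 CPM in fibroblasts, 3532 to 6373 in calvarial-OB and 2140 to 3485 in iOB, none of them at 0 in any group. All 7 adipocyte markers were higher, summing to 131 to 145 CPM in fibroblasts, where Adipoq and Cfd were at 0, and to 1217 to 2006 in calvarial-OB. Bulk RNA does not show which cells carried these markers, and whether the cultures were mixed was not tested. Fewer cells of a type and less RNA or methylated DNA per cell cannot be told apart. Any part of other cell types in the methylation scores was not tested.

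Of 33 genes in the methylation list 32 were measured and tested. Between calvarial-OB and fibroblasts 8 were higher and 9 lower, 17 in all, where 55.8% of all genes tested were called (28.4% higher, 27.4% lower). The median log2 fold change was -0.07, against 0.02 over all genes; the list's share of calls was near that of all genes.

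Among the enzymes and partners that write methylation, Dnmt3a was the one that rose in calvarial-OB. It stood at 43.9, 35.1 and 30.3 CPM in the fibroblast libraries, at 94.4, 73.8 and 67.8 in calvarial-OB and at 77.0, 65.2 and 66.2 in iOB. All osteoblast libraries of both kinds lay above every fibroblast library. It rose by 1.11 ± 0.16 on the log2 scale (SE; edgeR adjusted p = 9.7e-05) in calvarial-OB and 0.93 ± 0.16 (edgeR adjusted p = 5.8e-04) in iOB. Between iOB and calvarial-OB it was -0.18 ± 0.16, which was not called (edgeR adjusted p = 0.37).

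Dnmt1, the maintenance enzyme, had 71.5 ± 7.3 CPM in fibroblasts, 74.2 ± 3.9 in calvarial-OB and 48.8 ± 5.0 in iOB. Calvarial-OB and fibroblast libraries overlapped, and their log2 difference was 0.06 ± 0.11 (edgeR adjusted p = 0.70). In iOB Dnmt1 fell by 0.55 ± 0.11 against fibroblasts (edgeR adjusted p = 0.0022) and by 0.61 ± 0.11 against calvarial-OB (edgeR adjusted p = 0.0010). Dnmt3b was low, at 2.72 ± 1.28, 4.49 ± 1.12 and 2.63 ± 0.84 CPM in fibroblasts, calvarial-OB and iOB, and its log2 fold change of 0.74 ± 0.37 in calvarial-OB was called only without fibroblast replicate 1 (edgeR adjusted p = 0.11, and 0.037 to 0.36 over all fits).

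Uhrf1, which guides Dnmt1 to newly copied DNA, and Hells, a chromatin remodeller needed for methylation of repeats, were chosen after their values were seen. Uhrf1 had 31.4, 31.6 and 35.2 CPM in fibroblasts, 26.1, 46.9 and 37.8 in calvarial-OB and 8.46, 9.16 and 14.4 in iOB. Only iOB stood apart: Uhrf1 fell by 1.63 ± 0.23 there against fibroblasts (edgeR adjusted p = 1.5e-04), while its change in calvarial-OB was 0.17 ± 0.21 (edgeR adjusted p = 0.51). Hells fell by 1.21 ± 0.25 in iOB (edgeR adjusted p = 0.0019) and had a log2 fold change of -0.30 ± 0.23 in calvarial-OB (edgeR adjusted p = 0.28), which was -0.071 without calvarial-OB replicate 1 and -0.53 without calvarial-OB replicate 3. The ubiquitin ligase gene Uhrf2 fell by 0.51 ± 0.11 in calvarial-OB and by 0.57 ± 0.11 in iOB against fibroblasts. Trim28, a corepressor that keeps methylation at imprinted sites, fell by 0.67 ± 0.11 in iOB. In calvarial-OB Trim28 fell by 0.33 ± 0.11 (edgeR adjusted p = 0.026). That call did not hold with upper-quartile scaling or when fibroblast replicate 2 or 3 or calvarial-OB replicate 3 was left out (adjusted p from 0.0073 to 0.087 over all fits).

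Of 10 genes on the side of removal, 5 rose and 2 fell in calvarial-OB, where 28.4% of all genes rose and 27.4% fell. Tet1 rose by 0.83 ± 0.24 (edgeR adjusted p = 0.011), from 7.44, 7.22 and 4.06 CPM in fibroblasts to 12.0, 10.3 and 10.7 in calvarial-OB, with iOB at 3.78, 5.27 and 5.72. Calvarial-OB was the highest group in every library, and Tet1 was lower in iOB than in calvarial-OB by 1.15 on the log2 scale (log2 fold change -1.15 ± 0.25). Tet2 was at 38.2 ± 8.4 CPM in fibroblasts and 35.1 ± 7.4 in calvarial-OB and was not called (log2 fold change -0.13 ± 0.18, edgeR adjusted p = 0.57). Tet3 fell by 0.64 ± 0.16 in iOB against fibroblasts. In calvarial-OB Tet3 fell by 0.50 ± 0.16 (edgeR adjusted p = 0.019) with overlapping libraries. Leaving out fibroblast replicate 1 or 2, or replicate 2 or 3 of calvarial-OB, ended that call (adjusted p from 8.8e-05 to 0.097 over all fits).

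The isocitrate dehydrogenase genes Idh1 and Idh2, whose enzymes make the 2-oxoglutarate that Tet enzymes use, rose by 0.59 ± 0.14 and 0.92 ± 0.13 in calvarial-OB. Gadd45b, a stress-response gene linked to demethylation, stood at 139, 46.0 and 40.4 CPM in the calvarial-OB libraries against 29.1 to 35.1 in fibroblasts. Its log2 fold change of 1.24 ± 0.39 (edgeR adjusted p = 0.017) was 0.43 without calvarial-OB replicate 1, and leaving out fibroblast replicate 2 or 3 ended the call (adjusted p from 0.0056 to 0.060 over all fits). Apobec1, a cytidine deaminase gene, rose by 2.64 ± 0.19 in calvarial-OB and by 2.20 ± 0.19 in iOB, in the same libraries in which the macrophage markers were high; their part in it was not tested. The uracil glycosylase gene Smug1 fell by 0.44 ± 0.17 (edgeR adjusted p = 0.040). It was not called in 9 of 11 other fits, among them those leaving out any 1 fibroblast library or replicate 1 or 3 of calvarial-OB (adjusted p from 0.028 to 0.10 over all fits).

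Readers of methylated DNA and genes related to them moved both ways. Zbtb38, a zinc-finger repressor that binds methylated CpG, had 52.0, 54.6 and 56.5 CPM in fibroblasts, 38.5, 34.6 and 37.8 in iOB and 18.1, 17.5 and 14.6 in calvarial-OB, 3 levels without overlap. It fell by 1.71 ± 0.12 in calvarial-OB (edgeR adjusted p = 2.9e-07) and by 0.56 ± 0.11 in iOB, and was higher in iOB than in calvarial-OB by 1.15 ± 0.12 (edgeR adjusted p = 1.4e-05). Its relative Zbtb33 (Kaiso) followed the same order, from 37.8 ± 0.35 CPM in fibroblasts to 26.3 ± 1.8 in iOB and 15.6 ± 4.2 in calvarial-OB, and fell by 1.26 ± 0.17 in the last (edgeR adjusted p = 4.9e-05). Mbd2 and Mbd3, of the methyl-CpG-binding domain family, rose in calvarial-OB by 0.54 ± 0.10 and 0.50 ± 0.12. In iOB Mbd2 rose by 0.44 ± 0.10 against fibroblasts, while Mbd3 was not called (log2 fold change -0.06 ± 0.12).

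Of 5 genes that supply the methyl donor none rose in calvarial-OB and 2 fell, against 28.4% and 27.4% of all genes. Mtr, the methionine synthase gene, fell by 1.01 ± 0.12 (edgeR adjusted p = 2.5e-05), from 43.7 ± 3.9 to 21.7 ± 2.7 CPM, with iOB at 36.4 ± 1.7. Ahcy, whose enzyme clears the by-product of methyl transfer, fell by 0.81 ± 0.14, from 63.5, 69.3 and 73.6 CPM to 30.1, 46.6 and 41.1, with iOB at 65.4, 71.2 and 72.2. Both genes were higher in iOB than in calvarial-OB, Ahcy by 0.82 ± 0.14 (edgeR adjusted p = 6.0e-04) and Mtr by 0.75 ± 0.12 (edgeR adjusted p = 4.3e-04).

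**Figure D5:**
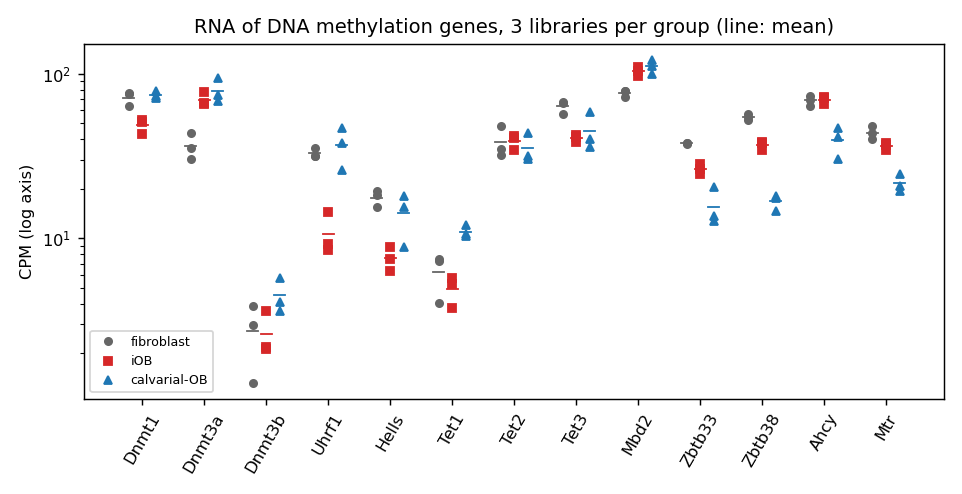
RNA level in CPM on a log axis (vertical) of 13 genes of DNA methylation (horizontal axis), with 1 point per library, 3 libraries per group and a line at the group mean. Dnmt3a lies higher in both osteoblast cultures than in fibroblasts, the means of Dnmt1, Uhrf1 and Hells are lowest in iOB, and those of Zbtb33, Zbtb38, Ahcy and Mtr in calvarial-OB.

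Against fibroblasts, 3 genes of the list were higher and 12 lower in iOB, where 43.3% of all genes were called (22.7% higher, 20.6% lower), with a median log2 fold change of -0.26 against -0.04 over all genes. Of 9 writers 7 were lower in iOB and 1 higher, where calvarial-OB had 2 lower and 1 higher. These comparisons share the fibroblast libraries. In the direct comparison of iOB with calvarial-OB, 4 genes of the list were higher and 11 lower, where 48.8% of all genes were called (24.7% higher, 24.1% lower), and without calvarial-OB replicate 1 the higher ones numbered 8.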

How the data were processed

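The authors deposited mean relative methylation scores per group and window, and counts per gene symbol for 9 RNA libraries. Per the submitters' processing notes, the tools were R 3.2.2, DESeq2, Bowtie2 and STAR 2.4.2a, with no roles given, and the build was mm9; how inputs entered the scores, and the counting tool and strand setting, are not given in the sources used here. OB in the column names was read as calvarial-OB. From the scores, windows were selected, classed and joined where they adjoin, without tests. Raw counts were fitted in 1 model of 9 libraries with edgeR 4.0.16 (R 4.3.3; TMM, filterByExpr, group as the only term; 13438 of 17982 genes; biological coefficient of variation 14.8%) and the code was tested on simulated data. The SE is the absolute log2 fold change divided by the square root of the F statistic. Alternatives were DESeq2 1.42.0, upper-quartile normalization, no filter, a replicate block, 2 groups alone and each library left out. The authors also deposited, for iOB GFP+ against fibroblast, a table with log2 fold changes, their errors and p-values per the file headers. Windows were tied to no gene, so the planned RNA of genes holding a window is not reported. Named windows were the largest differences, longest regions, extremes of iOB minus calvarial-OB and the threshold's neighbours, and named genes were those of the methylation list called in calvarial-OB against fibroblast plus Dnmt1, Dnmt3a, Dnmt3b, Tet1, Tet2 and Tet3, with 1 gene under this rule not reported here; Uhrf1 and Hells were added after their values were seen. Members and lists were chosen with earlier results of these data known. Windows and tables used Python 3.11.15 with pandas 2.3.3.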

Additional observations from a re-analysis of the deposited data

How the results depend on the processing

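Requiring the calvarial-OB score to exceed the fibroblast score by at least 25% or 50% left 463 or 263 of the 995 windows. The share with iOB above fibroblasts, and with iOB nearer to calvarial-OB, then went from 4.32% to 7.99% or 13.7%, and the share with iOB above both from 3.72% to 6.70% or 11.4%. These limits use the scores of the rule and favour windows with low fibroblast scores, where iOB above fibroblasts mostly lies, so the rise in the shares is tied to them. The 3 shares were 4.30%, 4.15% and 3.56% with each region counted once and 4%, 4% and 3.33% without chromosome 5. Joining windows up to 1000 bases apart gave 590 regions in place of 675. Scores have no depth, so no detection limit can be set for the many zeros.

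Genes called stayed within 1.5 times in all 11 alternatives of each comparison: 6580 to 8003 around 7494 for calvarial-OB against fibroblast, 4717 to 6957 around 5820 for iOB against fibroblast, and 5435 to 7205 around 6561 for iOB against calvarial-OB. Called genes of the methylation list numbered 13 to 20, 12 to 18 and 12 to 19 in the same order, and the genes higher in iOB than in fibroblasts were 6 rather than 3 in a fit of those groups alone. With the replicate number as a block the counts were 7364, 5614 and 6303. Replicate numbers are not said to mark a shared culture or day, so they were not taken as pairs. Deviations of same-numbered libraries correlated at -0.17 to 0.16. Of 9 libraries, 2 correlated best with their own number, each in calvarial-OB against fibroblast. With 3 libraries per group these correlations can neither show nor exclude pairing. Of 17 named genes called in calvarial-OB against fibroblast, 13 kept their call in every alternative. Changes of sign were counted for all named genes in calvarial-OB against fibroblast, and in the iOB comparisons for called genes and Dnmt3a only. Within these, log2 fold changes took the other sign in 4 cases, none of them called. With each library left out in turn, calvarial-OB against fibroblast ran from -0.031 (without fibroblast replicate 1) to 0.11 for Dnmt1, from -0.32 to 0.067 (without fibroblast replicate 1) for Tet2 and from -0.010 (without calvarial-OB replicate 2) to 0.35 for Uhrf1, and iOB against calvarial-OB from -0.26 to 0.018 (without calvarial-OB replicate 1) for Dnmt3a. The causes were not tested.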

Other observations

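In the authors' deposited table for reporter-positive induced cells (iOB GFP+) against fibroblasts, 8 genes of the methylation list were higher and 12 lower of 32 with an adjusted p-value, or 62.5%, where 45.5% of all genes in that table passed 0.05. Dnmt3a had a log2 fold change of 2.15 ± 0.20 there (SE, the authors' deposited table). Dnmt1, Uhrf1 and Hells fell by 0.65, 1.71 and 1.88 in the authors' deposited table. Tet1, at 0.62 ± 0.30, did not pass in the authors' deposited table (adjusted p = 0.079). The iOB GFP+ libraries behind these values were not analysed here. Which fibroblast libraries entered is not stated, and they may be those of the other comparisons.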
